A study of Asparagus officinalis with 3 samples.

Results

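The miR171 and miR479 families of asparagus (Asparagus officinalis), a dioecious crop with separate female and male plants, comprised 5 of the 194 miRNA sequences listed for the species. They were taken by the family given in the deposited list. Aof-miR171a, aof-miR171b, aof-miR171f and aof-miR171j were listed as miR171, and aof-miR171h, in spite of its name, as the only sequence of miR479. Of the 463 miRNA and unigene pairs in the list of predicted targets, 7 belonged to miR171 and none to miR479. A unigene is a transcript assembled from asparagus cDNA sequences.

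Small RNA was sequenced from 1 female and 1 male library. Below, females and males stand for these libraries. RNA of flowers, stems, roots and leaves was mixed in equal amounts for each library, from pooled 3-year-old greenhouse plants of the cultivar Grand. The organs were mixed before sequencing, so a difference between the libraries cannot be assigned to flowers or to any other organ, and more cells of a type and more miRNA per cell cannot be told apart. With 1 library per sex there was no estimate of the spread between plants, and no test of any difference between the sexes was possible. Abundance is given in TPM, here the reads of a sequence scaled by the authors to a total for its library, without division by length. Which reads entered that total is not given in the sources used here.

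Plant miRNAs are short RNAs that guide an Argonaute protein to messenger RNAs of nearly full complementarity, which are then cut opposite the middle of the miRNA or kept from translation. miR171 is an old family shared by land plants. In Arabidopsis it acts on the HAIRY MERISTEM group of GRAS transcription factors, also called scarecrow-like proteins, which keep the cells of the shoot meristem from differentiating. GRAS proteins as a class take part in meristem maintenance, root patterning and gibberellin signalling. miR479 resembles miR171 in sequence and is kept as a family of its own in miRNA lists.

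The mature sequences are shown first because the 5 members differ mainly in where the same stretch of letters begins. They are written 5′ to 3′, with the seed, bases 2 to 8, in capitals.
aof-miR171a: uUGAGCCGcgucaauaucucc
aof-miR171j: uUGAGCCGcgccaauaucacu
aof-miR171h: uGAGCCGAaccaauaucacuc
aof-miR171f: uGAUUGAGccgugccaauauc
aof-miR171b: uAAUUGAGccgugccaauauc
All 5 were 21 nt long and began with U. In the whole list 61.9% of sequences were 21 nt long and 64.4% began with U. Aof-miR171a and aof-miR171j shared the seed UGAGCCG, and no other listed miRNA had it. The seeds of aof-miR171h, aof-miR171f and aof-miR171b each occurred in 1 listed miRNA only.

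The same letters are shown again with the 2 stretches common to all members, UGAGCCG and CAAUAUC, in capitals.
aof-miR171a: uUGAGCCGcguCAAUAUCucc
aof-miR171j: uUGAGCCGcgcCAAUAUCacu
aof-miR171h: UGAGCCGaacCAAUAUCacuc
aof-miR171f: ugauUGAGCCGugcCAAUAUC
aof-miR171b: uaauUGAGCCGugcCAAUAUC
Each of these stretches of 7 nt was present in all 5 members and in none of the other listed miRNAs, and 3 nt stood between them in every member. The first stretch began at base 5 in aof-miR171f and aof-miR171b, at base 2 in aof-miR171a and aof-miR171j, and at base 1 in aof-miR171h. The members therefore fell into 3 registers, displaced from that of aof-miR171f by 3 nt for aof-miR171a and aof-miR171j and by 4 nt for aof-miR171h.

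Within a register the differences were few. With positions counted from 1 at the 5′ end, aof-miR171b differed from aof-miR171f by the single substitution G2A, which lies in the seed. Aof-miR171j differed from aof-miR171a by U11C, U19A and C21U, all outside the seed. Across registers, aof-miR171f and aof-miR171j were identical at 17 of their 18 overlapping positions, with U12C (numbered in aof-miR171f) as the difference. Aof-miR171h, the miR479 sequence, matched aof-miR171j at 18 of 20 overlapping positions. The differences were A8C and A9G, numbered in aof-miR171h, and these bases lie between the 2 common stretches.

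In the small RNA libraries all 5 members were more abundant in the female than in the male library. The 3 abundant members were aof-miR171a, aof-miR171h and aof-miR171f, and the other 2, aof-miR171j and aof-miR171b, were near the lower limit of the list. The values of each member follow, from the most to the least abundant in the female library.

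Aof-miR171a had 324 TPM in females, against 168 TPM in males. It was 1.93-fold higher in the female library (log2 ratio 0.95), just under 2-fold. It ranked 18th of 194 in females and 21st in males.

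Aof-miR171h had 185 TPM in females, against 46.6 TPM in males, a 3.98-fold difference (log2 ratio 1.99). Its rank was 23 in females and 40 in males. Of the 32 miRNAs with at least 100 TPM in one library, this was the highest female to male ratio. It reached 100 TPM in the female library alone, so its place in this set depended on its higher value. Over the 193 miRNAs with a value above 0 in both libraries it was the 14th highest.

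Aof-miR171f had 128 TPM in females, against 39.1 TPM in males, a 3.28-fold difference (log2 ratio 1.72). Its ratio was the third highest of the 32 abundant miRNAs, a set it too entered through its female value alone, and the 18th highest of 193. It ranked 26th in females and 46th in males.

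Aof-miR171j had 5.49 TPM in females, against 2.82 TPM in males (1.95-fold, log2 ratio 0.96). Aof-miR171b had 5.26 TPM in females, against 3.45 TPM in males (1.52-fold, log2 ratio 0.61). Both male values lay below 5 TPM, the level that the authors required in at least one library, and both female values lay just above it. The low values in each library were multiples of a common step, 0.229 TPM in females, against 0.157 TPM in males. Aof-miR171j stood at 24 female and 18 male steps, and aof-miR171b at 23 female and 22 male steps. If a step is a read, the differences of these members rest on few reads.

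**Figure D1:**
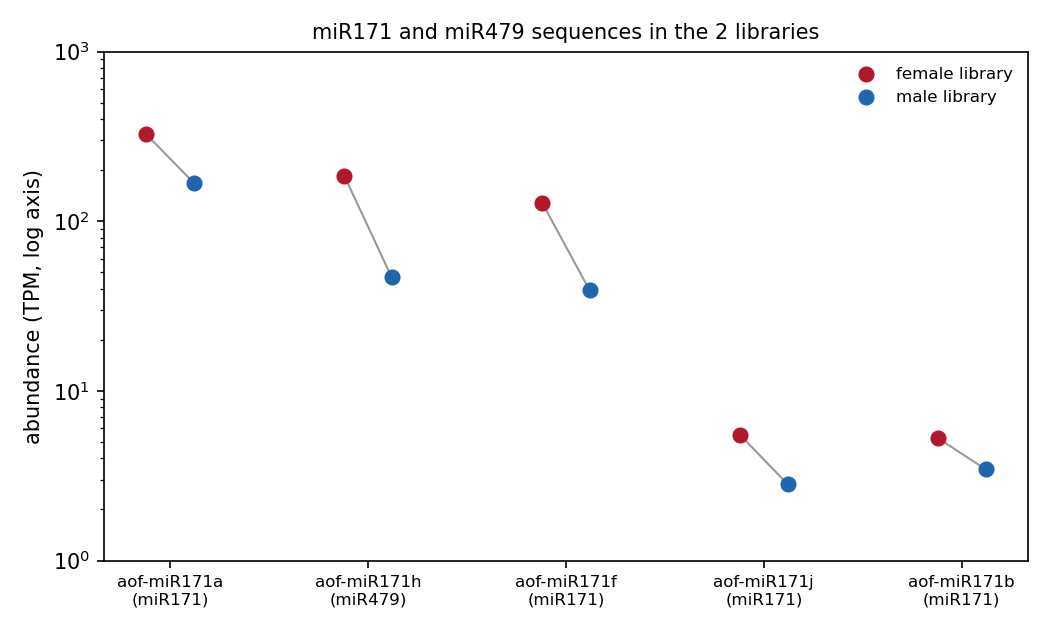
Abundance of the 5 sequences in TPM (log axis), with the female library (red) left of the male library (blue) and a grey line joining the values of one sequence. Every line slopes down to the right, most steeply for aof-miR171h (3.98-fold) and aof-miR171f (3.28-fold).

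Of the 5 members, 2 were over 2-fold apart, aof-miR171h and aof-miR171f, both with the higher value in females. Over all 194 listed miRNAs, 30.9% were over 2-fold apart, 18.0% with the higher value in females and 12.9% with the higher value in males. With 5 TPM added to every value, the same 2 members were over 2-fold apart, against 7.73% of all listed miRNAs with the higher value in females (15 sequences) and 17 sequences with the higher value in males. All 5 members were higher in the female library by any size, as were 57.7% of all listed miRNAs. Aof-miR171j and aof-miR171b reached the required 5 TPM in the female library alone, so their direction followed from how they entered the list. Of the 32 abundant miRNAs, 15.6% exceeded 2-fold in females, and the 5 sequences in that count included aof-miR171h and aof-miR171f. Both were among the 32 only through their female values, so this share is no separate support. The median log2 ratio of the 5 members was 0.96, against 0.18 over the 193 miRNAs. This median is the value of aof-miR171j, one of these 2 rare sequences.

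**Figure D2:**
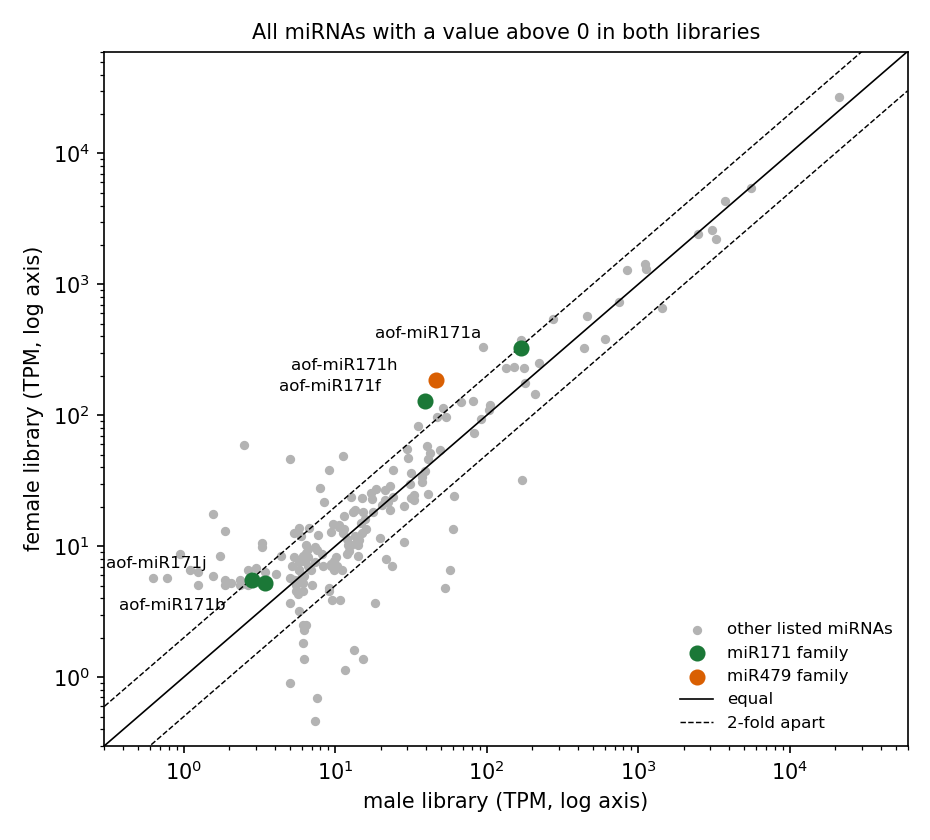
Female against male TPM (both log axes) for the 193 miRNAs with a value above 0 in both libraries, with miR171 in green and miR479 in orange, the line of equality and dashed lines at 2-fold. All 5 members lie above equality, and aof-miR171h and aof-miR171f lie above the upper dashed line.

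Summed over its 4 sequences, miR171 reached 463 TPM in females, against 213 TPM in males, 2.17-fold higher in the female library (log2 ratio 1.12). It was the 9th most abundant of 26 families in females and the 10th in males. Its ratio was the fifth highest of the 26 families. When the male values were multiplied by 1.13, the median ratio of all listed miRNAs, the miR171 ratio was 1.92, below 2-fold. The single miR479 sequence gave that family the highest ratio of the 26, and its rank by abundance was 13 in females and 20 in males.

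**Figure D3:**
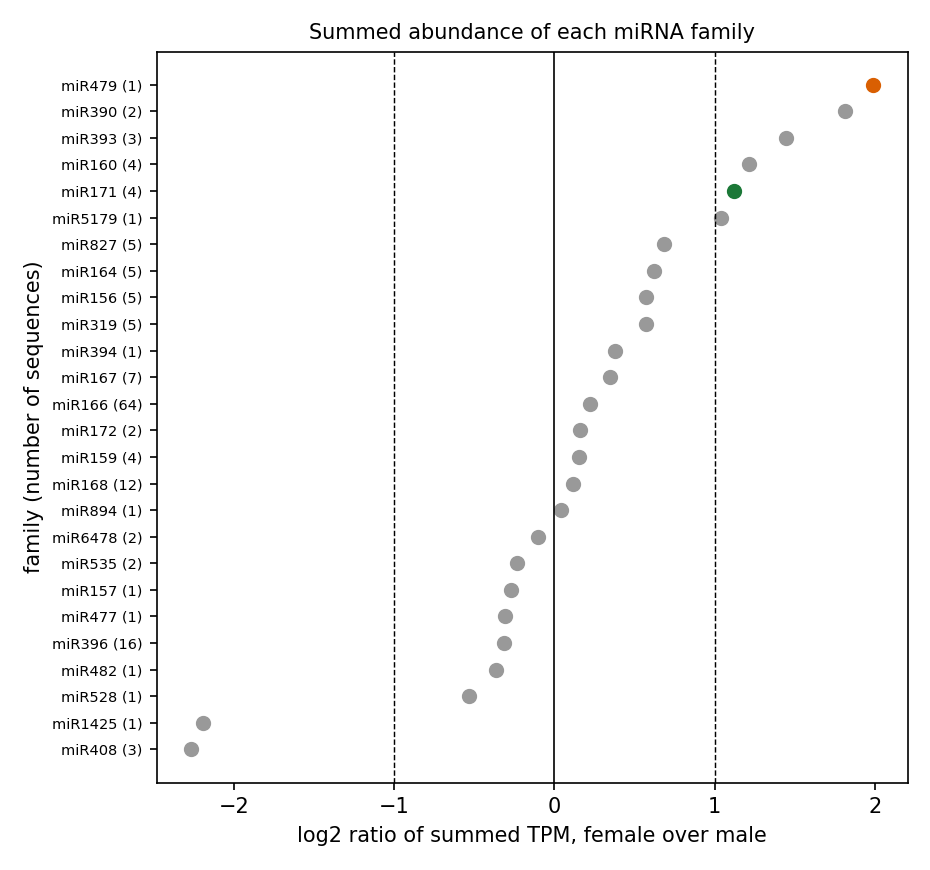
Log2 ratio of summed TPM, female over male, for 26 miRNA families, with the number of sequences in parentheses and dashed lines at 2-fold. miR479 (orange) is at the top with 1.99 and miR171 (green) is the fifth with 1.12.

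The make-up of the 2 families differed between the libraries. The 5 sequences together had 649 TPM in females, against 259.9 TPM in males. Aof-miR171a made up 50.0% of this sum in females, against 64.6% in males. Aof-miR171h made up 28.6% in females, against 17.9% in males, and aof-miR171f 19.8% in females, against 15.0% in males. The order of these 3 was the same in both libraries. Aof-miR171a exceeded aof-miR171h by 1.75-fold in females, against 3.61-fold in males. Aof-miR171j and aof-miR171b each contributed from 0.811% to 1.33% of the sum in either library.

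Grouped by register, the sequences starting where aof-miR171f starts had 134 TPM in females, against 42.5 TPM in males, a 3.14-fold difference. Those in the register of aof-miR171a had 329.9 TPM in females, against 171 TPM in males, a 1.93-fold difference. The rare sequence of each register moved these sums little, since aof-miR171b amounted to 4.10% of aof-miR171f in females, against 8.83% in males. Aof-miR171j amounted to 1.69% of aof-miR171a in females, against 1.68% in males. In the register of aof-miR171a, the rarer sequence thus had nearly the same share in both libraries. The values of aof-miR171j stood at 24 female and 18 male steps, and those of aof-miR171b at 23 and 22. No counting error was computed for these shares.

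The miRNAs of other families with the most similar pair of values were found by the distance in the plane of log2 female and log2 male TPM. Nearest to aof-miR171a was aof-miR827c, of a family known for phosphate responses, at a distance of 0.22 with 378 TPM in females, against 168 TPM in males. The next was aof-miR394, whose family acts in shoot meristems of Arabidopsis, at 0.50 with 231 TPM in females, against 178 TPM in males. Nearest to aof-miR171f was aof-miR160d, of the family that acts on auxin response factors, at 0.42 with 115 TPM in females, against 51.1 TPM in males, followed by aof-miR5179 at 0.49. Aof-miR160d was also the nearest to aof-miR171h, at 0.71, and aof-miR166k-4, of the family that acts on HD-ZIP III factors, followed at 0.77. The likeness rests on 2 values per sequence.

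A chosen list of other families known from plants for meristem function or the change to flowering, which is not complete and leaves out miR394, was set beside miR171. It held miR156, miR157, miR164, miR166 (with miR165), miR172 and miR396, with 93 sequences. Of these, 18 (19.4%) exceeded 2-fold in females and 14 (15.1%) in males, close to the 18.0% and 12.9% of all listed miRNAs. The miR166 family alone gave 13 and 9 of them. The median log2 ratio of the 93 sequences was 0.24, against 0.96 for the miR171 and miR479 sequences and 0.18 for all. The value of 0.96 is that of aof-miR171j, a rare sequence listed through its female value alone. The summed ratios of the 6 families ran from 0.80 for miR396 to 1.54 for miR164, against 2.17 for miR171 and 3.98 for miR479. A ratio over 2-fold was not particular to miR171 and miR479, since families outside the chosen list had it too. These were miR390 (3.51), miR393 (2.73), miR160 (2.32) and miR5179 (2.05). All other families had a female to male ratio below 2. Of these, miR408 (ratio 0.21) and miR1425 (ratio 0.22) were over 2-fold higher in the male library.

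The list of predicted targets paired miR171 with 3 unigenes. One of them, UN22221, had as its best protein match a predicted scarecrow-like protein 6-like of grapevine (Vitis vinifera), a GRAS protein. It was the only unigene of the whole target list with a GRAS-type description, and all 4 of its pairs were with miR171. Every miR171 sequence was paired with it. The other 2 unigenes were UN31171, with no protein match, and UN00195, matched to the chloroplast protein cytochrome b6. None of the 3 unigenes was paired with a sequence of any other family.

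The score of a pair was the sum of 1 for a mismatch, 0.5 for a G:U pair and 2 for a gap, so a lower score is closer pairing. This sum gave the deposited score of all 463 pairs, which ran from 0.5 to 3 with a median of 2.5. The sites of UN22221 are shown because they hold the comparison between registers. They are written 5′ to 3′ in the sense of the unigene, with bases that make no Watson-Crick pair with the named miRNA in capitals.
aof-miR171f on UN22221: gauauuggcGcggcucaauca
aof-miR171b on UN22221: gauauuggcGcggcucaauCa
aof-miR171a on UN22221: UgGgauauugGcgcggcucaa
aof-miR171j on UN22221: UgGgauauuggcgcggcucaa
The sites of aof-miR171f and aof-miR171b covered bases 505 to 525 of the unigene, and those of aof-miR171a and aof-miR171j bases 502 to 522. The sites overlap, so these pairs concern 1 place in the transcript.

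Aof-miR171f paired with UN22221 at a score of 0.5, the lowest in the list, with 20 Watson-Crick pairs and a G:U pair at miRNA position 12. Of all 463 pairs, 8 (1.73%) had this score. No pair with a score of 0 was listed for any family, although in 47 listed pairs the site held the exact complement of another listed miRNA. Perfect pairs were thus absent from the list although such sites existed. At which step they were left out is not given in the sources used here. Lowest scores, shares and numbers of pairs therefore describe the list without perfect pairs. Aof-miR171b had a score of 1.5, as its base 2, the substituted one, made a mismatch. Aof-miR171j and aof-miR171a each had a score of 2. Aof-miR171j had mismatches at positions 19 and 21, whereas aof-miR171a had a mismatch at position 21 and G:U pairs at positions 11 and 19. The member with the closest pairing was thus the third in abundance in both libraries, and aof-miR171a, the most abundant, paired less closely.

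Plant Argonaute proteins cut the target between the bases opposite positions 10 and 11 of the miRNA. Position 10 lay opposite base 516 of UN22221 for aof-miR171f and aof-miR171b, and opposite base 513 for aof-miR171a and aof-miR171j. Both middle positions were Watson-Crick pairs except for aof-miR171a, with G:U at position 11. No pair in the whole list had a mismatch at position 10 or 11, so the lack of one does not set the miR171 pairs apart. Whether this was a condition for entering the list is not given in the sources used here.

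Aof-miR171h had no listed target, like 64 (33.0%) of the 194 listed miRNAs. miR479 was 1 of 3 families without any pair, with miR5179 and miR894. Its pairing was therefore computed here with the same score on the joined window of 24 nt that the miR171 sites of UN22221 cover. In the register set by the common stretches, 20 of its bases could be compared, and 4 were mismatches, at positions 8, 9, 18 and 20. Its computed score was at least 4, above the highest in the list. Position 10 of aof-miR171h would lie opposite base 512.

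The second unigene, UN31171, carried a nearly identical site on its minus strand. The windows of both unigenes are shown in the direction that pairs with the miRNAs, with the bases that differ between them in capitals.
UN22221 bases 502 to 525: UgGgauauuggcgcggcucaaucA
UN31171 bases 78 to 55: AgUgauauuggcgcggcucaaucU
They were identical at 21 of 24 positions, with the differences U1A, G3U and A24U, counted from the 5′ end of the window and written from UN22221 to UN31171. The list paired UN31171 with aof-miR171f (score 1.5) and aof-miR171a (score 2.5).

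Scored in the same way, aof-miR171j matched UN31171 with no mismatch and no G:U pair, a score of 0, yet this pair was not listed. The plus strand of UN31171 therefore holds the letters of aof-miR171j from base 58 to base 78, shown in capitals within the complement of the window.
UN31171 plus strand, bases 55 to 78: agaUUGAGCCGCGCCAAUAUCACU
Whether UN31171 is a target, or a precursor transcript that carries aof-miR171j itself, was not tested. In 47 listed pairs, 25 on the plus and 22 on the minus strand, the site held the exact complement of another listed miRNA. Aof-miR171b would have a score of 2.5 on UN31171, with mismatches at positions 1 and 2 and a G:U pair at position 12, and was not listed either. No listed pair of any family had mismatches at both of those positions. Aof-miR171h had 2 mismatches on UN31171, at positions 8 and 9, over the 20 bases that could be compared. Its computed score there was at least 2, within the range of the list, and no listed pair had mismatches at both of these positions.

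**Figure D4:**
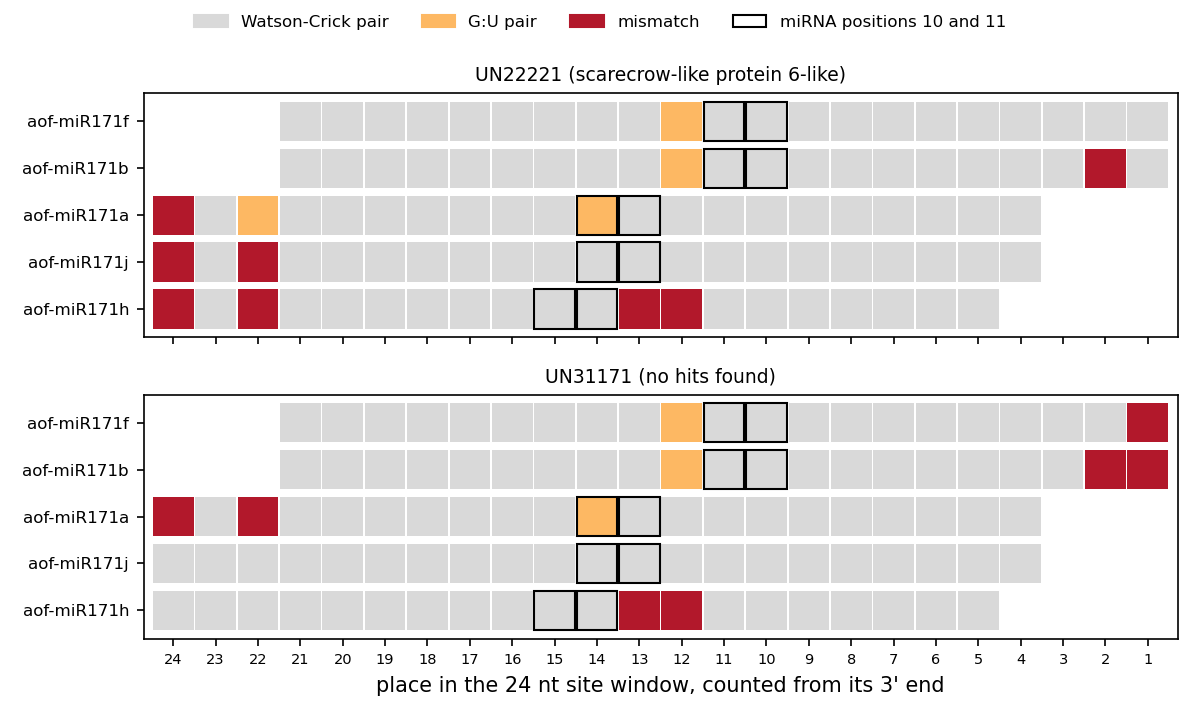
Pairing of the 5 sequences with the 24 nt site window of UN22221 (top) and UN31171 (bottom), by place from the 3′ end of the window, with grey for Watson-Crick pairs, orange for G:U pairs, red for mismatches and black frames for miRNA positions 10 and 11. Aof-miR171f has a single G:U pair on UN22221, aof-miR171j pairs throughout on UN31171, and the mismatches of aof-miR171h at positions 8 and 9 appear on both.

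The third unigene, UN00195, was paired with aof-miR171f alone, on its minus strand, with mismatches at positions 7, 16 and 21. The score was 3, the highest in the list. The site is shown because it is the weakest of the 7, with mismatched bases in capitals.
aof-miR171f on UN00195: UauauCggcacggcCcaauca
Of the 7 pairs of miR171, 4 were on the plus strand, all on UN22221, and 3 on the minus strand. Over the whole list 58.7% of pairs were on the plus strand. A minus-strand site pairs with a miRNA only in RNA read from the opposite strand of the assembled unigene, and the direction in which these unigenes are transcribed was not tested. Per sequence, aof-miR171f had 3 pairs, aof-miR171a had 2, aof-miR171j and aof-miR171b had 1 each and aof-miR171h had none, against a median of 1 over all listed miRNAs. The list gives alignments only, and the levels of the 3 unigenes in female and male plants were not analysed here.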

How the data were processed

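Small RNA of 1 female and 1 male asparagus library was analysed from the processed tables. The reads of the degradome library were not analysed here. Values were deposited in RPM, called TPM by the authors. Per the study's methods, adapters, low-quality and structural RNA reads were removed, and lengths of 20 to 24 nt and a value of 5 TPM or more in one of the libraries were required, and the sequences were compared with known miRNAs by bowtie. The target scores deposited by the authors belong to alignments of miRNAs with unigenes assembled from asparagus cDNA sequences.

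Female to male ratios and their log2 were computed without a pseudocount, and values were summed by family and register. A difference over 2-fold was counted. The value of aof-miRn29 was 0 in females, and it counted as over 2-fold higher in the male library. Depth was judged from the step between values up to 60 TPM. If each step is 1 read, the totals are 4373625 female and 6374800 male reads, and 156 of 157 female and 161 of 162 male values were whole multiples within 0.0051 TPM. These totals equal none of the read totals given in the study, and the reads that the authors scaled to are not known here. Only 21 values per library lay within 20 steps, under the 100 required for rebuilding reads, so counting intervals and tests were not run.

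Named were all 5 sequences, their targets with a GRAS or scarecrow description, the 5 other pairs of lowest score (3 exist), unigenes shared by both families (none exist), and for each member over 10 TPM in both libraries the 2 nearest miRNAs of other families. GRAS targets were sought by words in the descriptions. The members, lists and rules were chosen with earlier results of these data known. Steps were tested on simulated data. Python 3.11.15, numpy 2.4.6 and matplotlib 3.10.9 were used.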

Additional observations from a re-analysis of the deposited data

How the results depend on the processing

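The ratios of the 5 sequences and of the miR171 family were recomputed with 1 or 5 TPM added to each value, with male values multiplied by the median ratio of all listed miRNAs, and with both libraries scaled to the same sum, with and without the abundant miR166 family. The miR171 sum was also taken with aof-miR171h, without aof-miR171a and without the rare sequences. No ratio changed direction, and 31 of 33 stayed on their side of 2-fold. Much of this was fixed in advance. Scaling multiplied the male values by at most 1.13, and adding a constant cannot reverse a ratio, so no reversal was possible here. Scaling and added TPM could only lower these ratios, so members under 2-fold as deposited could not cross it. The summed miR171 ratio dropped below 2-fold, to 1.92 with the median ratio and to 1.95 with equal sums. Aof-miR171f ranged from 2.91 to 3.23 and aof-miR171h from 3.52 to 3.91, while aof-miR171b ranged from 1.21 to 1.49. At a 1.5-fold threshold 5 of the 5 sequences counted as higher in the female library, as did 30.9% of all listed miRNAs. At 3-fold it was 2 of 5, against 9.79%. The 5 at 1.5-fold include aof-miR171j and aof-miR171b, which reached 5 TPM in the female library alone. With 5 TPM added, 15 listed miRNAs were over 2-fold higher in females and 17 in males, against 35 and 25 as deposited. Of 18 shares recomputed, 14 stayed within 1.5 times. The others were those of aof-miR171j and aof-miR171b with 5 TPM added. The 7 target pairs became 4 with the plus strand alone, and 3 with each unigene counted once. Fisher's exact test on rebuilt reads, listed as an alternative, was not run because too few values lay near the step. No paired analysis was possible because each sex had 1 library. Aof-miR171j and aof-miR171b stood at the fewest steps of the 5 sequences, and no counting error was computed.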
